A study of Mus musculus with 16 samples.

Results

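Parvalbumin interneurons were studied in droplet single-nucleus RNA sequencing of the hippocampus of female mice aged 9 months. A nucleus was taken as a parvalbumin nucleus where it held at least 3 UMIs (unique molecular identifiers, 1 per captured RNA molecule) of Gad1 and Gad2 together and at least 2 of Pvalb. It also had to hold no more than 2 UMIs of Sst and no more than 1 each of Slc17a7, Vip and Lamp5. This rule kept 333 of the 147873 nuclei that passed quality filters, from all 16 libraries with 10 to 51 nuclei each. The 4 groups of 4 libraries crossed 2 genotypes of Ch25h, intact (Ch25h+/+) or absent (Ch25h-/-), with the presence (Tau+) or absence (Tau-) of a tau allele. The labels name neither the tau line nor the promoter that drives it, nor whether Ch25h was absent from all cells or from some. The parvalbumin nuclei numbered 70 in Ch25h+/+ Tau+ libraries, 96 in Ch25h+/+ Tau-, 73 in Ch25h-/- Tau+ and 94 in Ch25h-/- Tau- libraries, an order kept below where 4 group values are given.

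Parvalbumin interneurons are GABA-releasing cells that synapse on the soma, the proximal dendrites or the axon initial segment of pyramidal neurons. They fire at high rates, for which they use potassium channels of the Kv3 family that close quickly, a fast calcium sensor of release, the calcium buffer parvalbumin and a large mitochondrial supply. Many are wrapped in a perineuronal net, a sheath of proteoglycans, and they carry ErbB4, the receptor through which neuregulins act on their synapses. CH25H makes 25-hydroxycholesterol, an oxysterol produced by innate immune cells after interferon signalling.

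The libraries held 51270831 to 84870650 UMIs and 8130 to 11654 nuclei each, with a median of 3846 to 6508 UMIs per nucleus. Of 145135 distinct barcodes among the nuclei, 2700 occurred in more than 1 library, and 0 of the parvalbumin barcodes did. Library sets were read from the summed counts of all nuclei, on a log scale and with each group's mean removed. The first principal component carried 32.7% of the variance left. Removing the means puts libraries of each group on both sides, so a split of each group was fixed in advance. In each group it set replicates 1 and 2 (set A) apart from replicates 3 and 4 (set B). Scores ran from -26.59 to -10.31 in set A and from 4.12 to 27.16 in set B. The labels give no batch, so shares of nuclei and the genes closest to the threshold between groups are also given within these sets.

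Parvalbumin nuclei were sampled deeply. Their median was 12673 UMIs (3145 to 33538) and 4178 genes, and a median of 0.0942% of their UMIs was mitochondrial. The somatostatin, Vip and Lamp5 nuclei used for comparison were chosen by the same kind of rule from the same libraries. They numbered 1209, 357 and 687, and their medians were 9823, 6845 and 9232 UMIs. Since the rule asks for 2 UMIs of a gene with few counts, it takes the deeper nuclei of its class. Among the members, 197 held exactly 2 Pvalb UMIs, 82 held 3 and 54 held 4 or more, up to 6. A further 490 nuclei met every other condition with 1 Pvalb UMI, at a median of 10696.5 UMIs, and 4856 did so with 0.

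The edge of the rule was read from genes it did not use. Syt2, the fast calcium sensor of synaptic vesicle release, stood at 223 CPM (UMIs of the gene per 1000000 UMIs of the summed nuclei) in nuclei with 3 or more Pvalb UMIs, at 181 with 2, at 153 with 1 and at 24.9 with 0. Btbd11, a gene enriched in parvalbumin cells, stood at 776.6, 654.3, 653 and 278.2 CPM over the same steps. Adarb2, a marker of interneurons from the caudal ganglionic eminence, ran the other way, at 18.7, 224.2, 593.8 and 4999.5 CPM. The nuclei just outside with 1 Pvalb UMI lay near the members in Syt2 and Btbd11 and above them in Adarb2, and those with 0 lay apart in all 3 genes. On the other edges, 11 nuclei failed the rule for 3 or more Sst UMIs, and their Syt2 level was 43.4 CPM. Another 104 held 2 or more Pvalb UMIs but fewer than 3 Gad UMIs, at 130.6 CPM of Syt2. Their counts of the other genes of the rule were not limited. A further 11 met the Gad and Pvalb limits but held 2 or more Slc17a7 UMIs, and their Syt2 level was not read.

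The label was checked against marker genes fixed for each cell type. The summed level of 20 parvalbumin interneuron markers that the rule did not use ran from 14453.5 to 21188.6 CPM over the 16 libraries, with a median of 18262.2. It ran from 7263.4 to 10176.3 in somatostatin nuclei (median 8459.1), from 10166.0 to 13942.3 in Vip nuclei (10943.9) and from 10796.8 to 16804.7 in Lamp5 nuclei (14226.7), so the Lamp5 range overlapped that of the parvalbumin nuclei. The largest single part of the sum was Erbb4 (median 9447 CPM in parvalbumin nuclei), which did not separate Vip or Lamp5 nuclei. The median sum was 2070.4 in all nuclei and 1469.4 in barcodes under 100 UMIs, which hold free RNA. The somatostatin, Vip and excitatory lists include Sst, Vip and Slc17a7. The rules use these genes, so part of those gaps was fixed in advance. Somatostatin markers summed to a median of 234 CPM in parvalbumin nuclei against 2687.4 in somatostatin nuclei, and Chodl was at 0 UMIs. Vip markers summed to 45.5 CPM, with Tac2 and Htr3a at 0, but reached 1567.5 CPM in 1 library. Markers of GABAergic neurons outside the hippocampus summed to 10.5 CPM, with Ecel1, Isl1 and Adora2a at 0. Astrocyte markers summed to 310.1 CPM (1085.9 in all nuclei), oligodendrocyte markers to 45.4 (1017.5) and excitatory markers to 378.2 (1366.8). Markers of oligodendrocyte precursors summed to 228.6 CPM, close to the 261.7 in all nuclei and above the 156.5 in barcodes under 100 UMIs. The astrocyte sum is led by Slc4a4, a bicarbonate cotransporter, which was itself higher in parvalbumin than in somatostatin nuclei (log2 fold change 2.999 ± 0.192 SE, adjusted p = 9.36e-10). The doublet caller Scrublet marked 28 of the 333 members.

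Each other interneuron class was compared with the parvalbumin nuclei over the 16 libraries, with 1 sum of counts per library and class and the library as a block. The 7 genes of the gates were left out of these tests, and a gene was called where it differed at least 2-fold with an adjusted p under 0.05 (edgeR quasi-likelihood test, Benjamini-Hochberg adjustment). Against somatostatin nuclei, 613 of 7340 genes tested were called (8.35%), with 259 higher (3.53%) and 354 lower (4.82%) in parvalbumin nuclei. Against Vip nuclei, 575 of 3525 were called (16.3%), with 286 higher (8.11%) and 289 lower (8.2%). Against Lamp5 nuclei, 698 of 5539 were called (12.6%), with 323 higher (5.83%) and 375 lower (6.77%). The counts of each gene list below are to be set against these shares. Where the ranges over libraries are said to lie apart, the share of all genes that did so was not counted. The 3 comparisons share the parvalbumin sums, so their values are given side by side and not as repeats of each other. The median log2 fold change over all genes tested was -0.01, -0.02 and 0.01. DESeq2 called 1448, 1849 and 1826 genes. Thinning to 2000 UMIs, with nuclei below that depth left out, gave 236, 153 and 239.

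Several potassium channel genes of fast-spiking cells were higher in parvalbumin nuclei. Kcnc1, which encodes the fast potassium channel Kv3.1, ran from 402 to 642 CPM over the 16 libraries, with a median of 531. Its highest library was at 177 CPM in somatostatin, 282 in Vip and 262 in Lamp5 nuclei, so the parvalbumin range overlapped none of them. The log2 fold changes were 1.82 ± 0.07 (SE, adjusted p = 1.89e-27), 1.33 ± 0.10 (1.7e-14) and 1.34 ± 0.07 (5.12e-19). Kcna1, the low-threshold channel Kv1.1 of axons, ran from 154 to 285 CPM with a median of 208, against medians of 47.7, 30.4 and 65.6 CPM. It was higher by 2.06 ± 0.09, 2.80 ± 0.17 and 1.76 ± 0.10 on the log2 scale, again with ranges apart.

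Other channels separated parvalbumin nuclei from some classes and not from others. Kcnc2, the Kv3.2 subunit, ran from 2145 to 3630 CPM in parvalbumin nuclei and overlapped the 1936 to 2731 CPM of somatostatin nuclei, with a log2 difference of 0.29 ± 0.06 that was under the 2-fold limit. Against Vip and Lamp5 nuclei it was higher by 1.23 ± 0.09 and 2.31 ± 0.07 with ranges apart. Kcns3, a silent subunit that modifies other potassium channels, was at 94.9 CPM in parvalbumin, 99.0 in somatostatin, 8.09 in Vip and 172 in Lamp5 nuclei (medians). Kcnn2, a calcium-gated SK channel, was the listed gene called lower. Its median of 162 CPM lay below the 525 CPM of Vip and the 598 CPM of Lamp5 nuclei, with log2 fold changes of -1.65 and -1.88 and ranges apart. Of the 18 channels listed, 16 passed the count filter against somatostatin nuclei, with 4 called higher and 0 lower and a median log2 fold change of 0.73. Against Vip nuclei 9 of 13 were called higher and 1 lower (median 1.05), and against Lamp5 nuclei 8 of 16 and 1 (median 1.03). The sodium channel gene Scn8a was among the genes called higher against Vip nuclei.

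**Figure D1:**
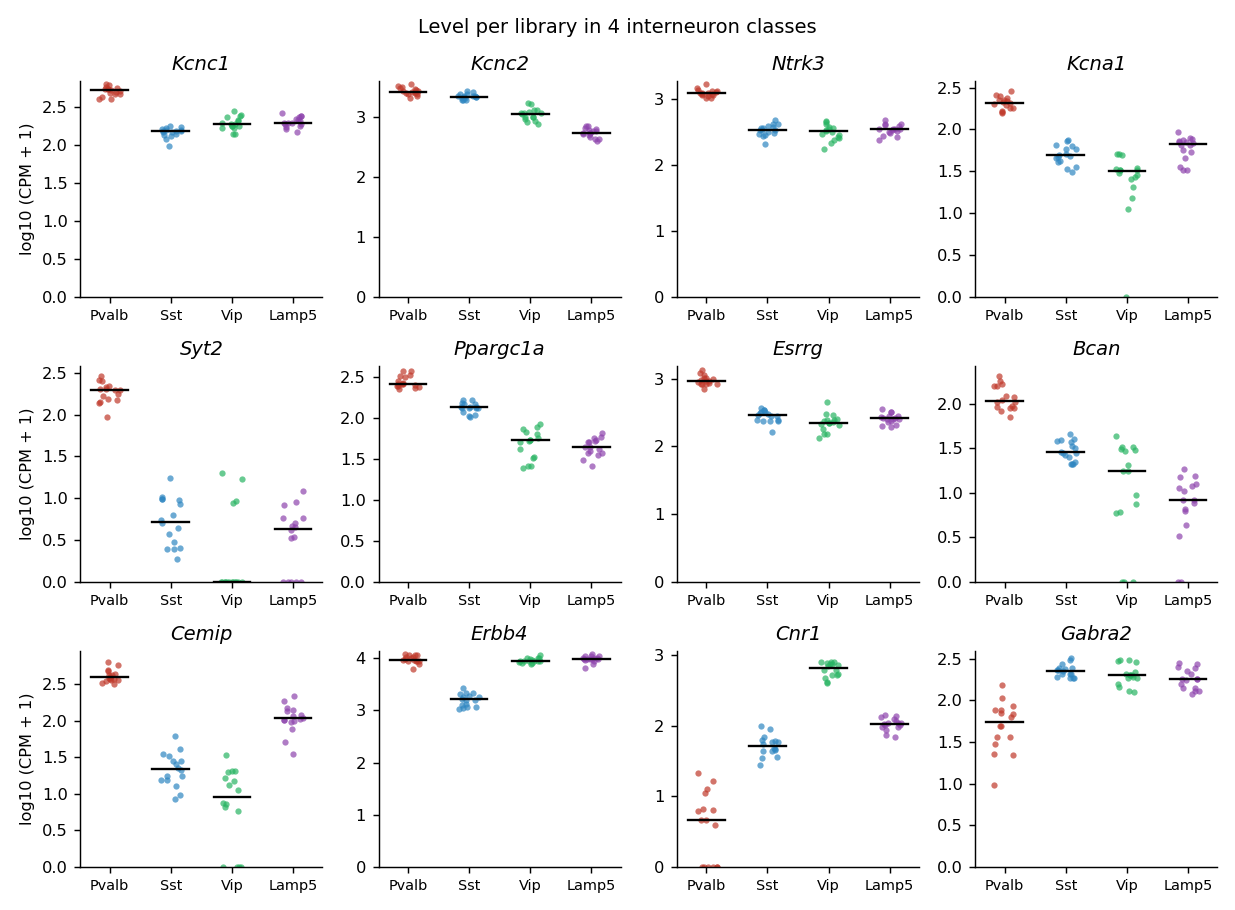
Level of 12 genes in the summed nuclei of each library (points, log10 of CPM + 1) for parvalbumin (Pvalb), somatostatin (Sst), Vip and Lamp5 nuclei, with the median of 16 libraries as a bar. Kcnc1, Kcna1, Ntrk3, Syt2, Ppargc1a, Esrrg, Bcan and Cemip lie above each other class with no overlap of the libraries, Erbb4 separates from Sst nuclei alone, Cnr1 lies below each, and Gabra2 lies below with some overlap with Vip and Lamp5 nuclei.

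Among genes of GABA release, the calcium sensor gene Syt2 was called higher in each comparison. Syt2 ran from 93.6 to 285 CPM over the 16 libraries, with a median of 197. Its median was 4.21 CPM in somatostatin, 0 in Vip and 3.28 in Lamp5 nuclei, and its highest library in any of them was at 18.9 CPM. The log2 fold changes were 4.97 ± 0.23 (adjusted p = 5e-13), 5.86 ± 0.27 (2.85e-20) and 5.59 ± 0.19 (1.02e-24). Cplx1, which holds the release machinery ready for calcium, was at a median of 115 CPM against 59.9, 24.6 and 39.9, and was called against Vip (2.07 ± 0.18) and Lamp5 nuclei (1.27 ± 0.11). Vamp1, a vesicle SNARE protein, was called against somatostatin nuclei (1.45 ± 0.17). Cacna1a and Cacnb4, the pore and an accessory subunit of the P/Q calcium channel, were called against Vip nuclei, by 1.49 ± 0.08 and 1.43 ± 0.11. Unc13c, a priming factor, was lower than in somatostatin nuclei (-2.86 ± 0.34), and Rims1, an active zone scaffold, was lower than in Lamp5 nuclei (-1.43 ± 0.06). The list of 18 genes of GABA synthesis and release includes Gad1 and Gad2, which the rule used and which were not tested between classes. Of the others, 16, 13 and 14 passed the filter in the 3 comparisons. Among these 2, 4 and 2 were called higher and 1, 0 and 1 lower, with medians of 0.19, 0.11 and 0.12.

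The start regions of Pvalb, which defines these nuclei, and of Syt2, which stood apart from each other class, are shown because the nuclei also carried a high level of Esrrg, an estrogen-related receptor. Both run from 250 bases before the start of transcription to 50 after it and come from RefSeq, build GRCm38.p6. Capitals mark the letters AAGGTCA, known to be bound by estrogen-related receptors, searched on both strands (TGACCTT on the strand printed).

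Syt2, chr1:134646362-134646661, plus strand: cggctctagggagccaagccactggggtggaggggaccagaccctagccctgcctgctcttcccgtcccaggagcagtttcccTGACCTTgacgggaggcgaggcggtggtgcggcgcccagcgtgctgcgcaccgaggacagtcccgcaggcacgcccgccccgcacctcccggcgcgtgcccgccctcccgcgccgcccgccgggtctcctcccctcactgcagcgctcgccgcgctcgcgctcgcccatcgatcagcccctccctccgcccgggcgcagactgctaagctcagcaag
Pvalb, chr15:78206351-78206650, minus strand: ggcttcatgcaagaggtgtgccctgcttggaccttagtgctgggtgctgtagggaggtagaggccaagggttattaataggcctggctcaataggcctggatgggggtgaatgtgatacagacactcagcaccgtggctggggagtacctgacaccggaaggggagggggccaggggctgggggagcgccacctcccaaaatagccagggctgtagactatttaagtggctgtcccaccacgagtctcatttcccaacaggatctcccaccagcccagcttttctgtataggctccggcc

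The Syt2 window held 1 match and the Pvalb window 0. The same letters lay in 1550 of 32851 start regions of this length (4.72%), and the region of the other Syt2 start in the table held none. They lay in 13 of 260 start regions of genes called higher than in somatostatin nuclei (5.0%), 13 of 338 against Vip (3.85%) and 16 of 356 against Lamp5 nuclei (4.49%), shares near that of all regions. A match is a run of letters and not a measured binding site.

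Transcription factors that govern mitochondrial and synaptic genes were among those with a high level in parvalbumin nuclei. Esrrg ran from 697 to 1370 CPM with a median of 938, against medians of 289, 224 and 260 CPM in somatostatin, Vip and Lamp5 nuclei. It was higher by 1.765 ± 0.085, 2.005 ± 0.108 and 1.87 ± 0.076 on the log2 scale, and the lowest parvalbumin library lay above the highest of each other class. Ppargc1a, which encodes PGC-1alpha, a coactivator that works with estrogen-related receptors, had a median of 264 CPM against 135, 52.9 and 43.7. Its log2 fold changes were 1.05 ± 0.08, 2.38 ± 0.13 and 2.63 ± 0.10, also with ranges apart. Sox6 and Satb1, which act in interneurons from the medial ganglionic eminence, were called higher against Vip (5.37 ± 0.32 and 3.16 ± 0.16) and Lamp5 nuclei (4.15 ± 0.17 and 4.87 ± 0.14). Against somatostatin nuclei, which share that origin, they differed by 0.45 ± 0.07 and -0.37 ± 0.07. Mef2c, an activity-regulated factor, and Rora, a nuclear receptor, were called higher against somatostatin nuclei (1.54 ± 0.06 and 1.53 ± 0.07). Npas1 and Npas3, a pair of related factors, were called lower against somatostatin and Vip nuclei. Npas3, for example, had a median of 469 CPM against 1440 and 2998. Of 20 factors listed, 14, 11 and 12 passed the filter, with 4 called higher in each comparison and 2, 3 and 0 lower (medians -0.07, 0.58 and 0.87).

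Genes of mitochondrial metabolism itself differed by less. Of 15 listed, 14 passed the filter against somatostatin nuclei, with 0 called in either direction and all fold changes between 0.12 and 0.84 (median 0.37). Some of these differences passed the test but not the 2-fold limit, with a lowest adjusted p of 2.58e-05. Against Vip nuclei 5 passed the filter with 0 called (0.31 to 0.86, median 0.42), and against Lamp5 nuclei 12 passed with 1 called, Idh3a, a subunit of a citric acid cycle enzyme (1.07 ± 0.17, median of the list 0.63). The sign was positive for each gene that passed the filter, and the size was under 2-fold for all but that gene.

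The perineuronal net list was thinly covered, since most of its genes are made by glia or had few counts. Bcan, the proteoglycan brevican, ran from 70.6 to 203 CPM with a median of 107, against 27.5, 16.8 and 7.32 CPM. It was higher by 2.06 ± 0.11, 2.99 ± 0.27 and 3.79 ± 0.18 on the log2 scale with ranges apart. Acan, which encodes aggrecan, the proteoglycan most tied to parvalbumin cells, had 94 UMIs in parvalbumin nuclei (8.55 to 32.1 CPM), 20 in somatostatin and 0 in Vip and Lamp5 nuclei. It did not pass the count filter, so it has no test. Tnr, which crosslinks the net, was called against Vip nuclei (2.04 ± 0.10). Ptprz1, a receptor for net proteoglycans, was called lower in each comparison (-1.53 ± 0.27, -4.08 ± 0.25 and -1.19 ± 0.27). Against Lamp5 nuclei the proteoglycan versican (Vcan) and the link protein Hapln1 were lower too. In all, 5, 3 and 5 of 20 genes were tested, with 1, 2 and 1 called higher and 1, 1 and 3 lower (medians -0.09, 2.04 and -1.19).

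Erbb4 separated parvalbumin from somatostatin nuclei. Erbb4 ran from 6336 to 12071 CPM with a median of 9447, and from 1085 to 2684 CPM in somatostatin nuclei, a log2 fold change of 2.58 ± 0.08 (adjusted p = 8.81e-18). Against Vip and Lamp5 nuclei the difference was 0.01 ± 0.07 (0.876) and -0.02 ± 0.06 (0.82), with overlapping libraries. Of the ligands, Nrg4 was higher than in somatostatin nuclei (1.35 ± 0.19) and Nrg1 lower than in Lamp5 nuclei (-1.73 ± 0.34). Of 8 genes listed, 7, 5 and 6 were tested, with 2, 0 and 0 called higher and 0, 0 and 1 lower (medians 0.25, 0.01 and -0.27). The list of calcium buffers and pumps holds 10 genes including Pvalb, which the rule used and which was not tested between classes, and 6, 5 and 5 of the others were tested (medians 0.22, 0.71 and 0.42). The genes called were the buffer gene Calb1, lower than in somatostatin nuclei (-1.11 ± 0.31), and the sodium-calcium exchanger gene Slc8a1, higher than in Vip nuclei (1.15 ± 0.09).

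Glutamate receptor genes differed in both directions. AMPA receptor subunits were among those called higher than in Vip and Lamp5 nuclei, and a kainate receptor subunit was called lower in each comparison. Gria3 and Gria4, subunits of AMPA receptors, had medians of 1262 and 2528 CPM. They were higher than in Vip nuclei by 4.15 ± 0.15 and 1.47 ± 0.07 with ranges apart, and Gria3 was higher than in Lamp5 nuclei by 1.97 ± 0.08. Grik1, a kainate receptor subunit, had a median of 453 CPM against 1804, 1366 and 2250. Its log2 fold changes were -2.06, -1.66 and -2.42, and its highest parvalbumin library, at 653 CPM, lay below the lowest of each other class. Grm8, a presynaptic glutamate autoreceptor, had a median of 19.4 CPM against 372, 884 and 115. Grin3a, an NMDA receptor subunit known from somatostatin cells, was lower than in somatostatin nuclei (-3.80 ± 0.19). Of 24 genes listed, 20 were tested in each comparison, with 1, 5 and 3 called higher, 7, 7 and 4 lower, and medians of -0.43, -0.15 and 0.16. Of all genes tested, 3.53, 8.11 and 5.83% were called higher and 4.82, 8.2 and 6.77% lower. The gene called higher than in somatostatin nuclei was Shisa9, which was called lower than in Vip nuclei.

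GABA-A receptor subunits differed in kind. Gabrd, the delta subunit of extrasynaptic receptors, ran from 32.1 to 101 CPM (median 64.9) and from 1.71 to 12.6 CPM in somatostatin nuclei, a log2 fold change of 3.41 ± 0.19 (adjusted p = 1.3e-20). Gabrg3, a gamma subunit, had a median of 2491 CPM against 554 in somatostatin and 1207 in Vip nuclei (2.17 ± 0.09 and 1.03 ± 0.07). Gabra2, the alpha-2 subunit, was the member called lower in each comparison. It ran from 8.55 to 153 CPM (median 55.3) against medians of 227, 202 and 179, and the log2 fold changes were -1.97 ± 0.19, -1.88 ± 0.19 and -1.69 ± 0.23. Its highest parvalbumin library overlapped the Vip and Lamp5 ranges. All 14 genes listed were tested against somatostatin nuclei, 11 against Vip and 13 against Lamp5 nuclei, with 4, 1 and 0 called higher and 2 lower in each (medians 0.65, 0.22 and -0.56).

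**Figure D2:**
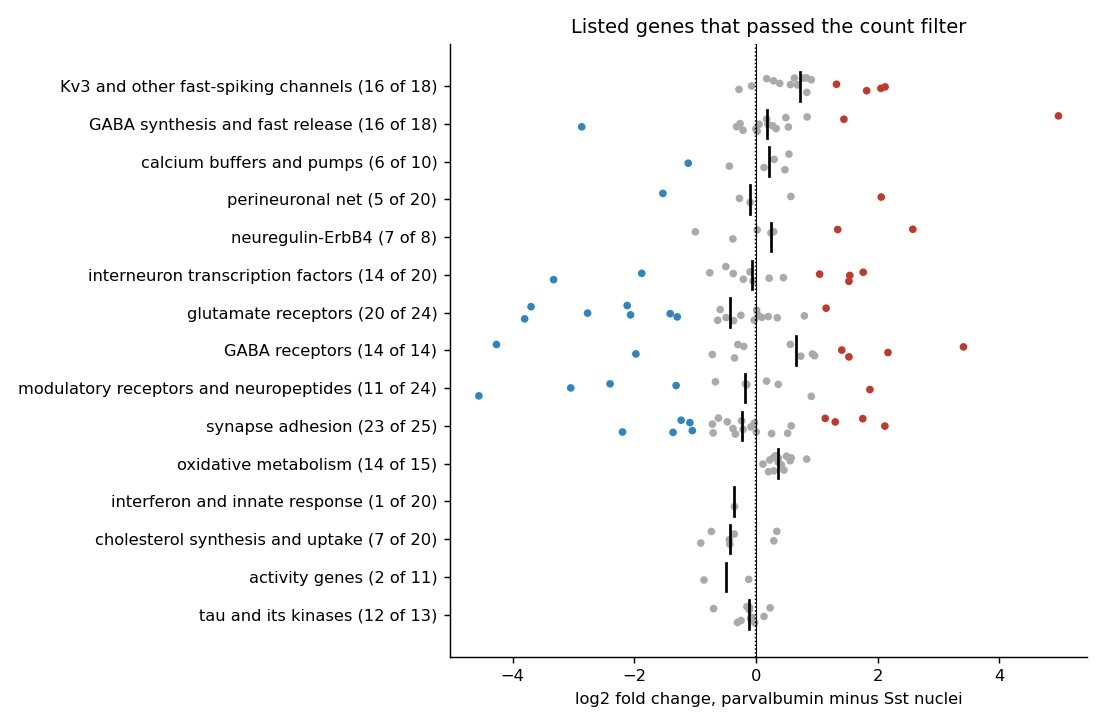
Log2 fold change between parvalbumin and Sst nuclei for the listed genes that passed the count filter (points, with the tested and listed numbers in brackets), coloured red where called higher, blue where called lower and grey where not called. Black bars mark each list's median, 0.73 for the fast-spiking channels and -0.43 for the glutamate receptors, and the dotted line the median of all genes tested.

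Receptors for modulators and neuropeptides differed in both directions. Cnr1, the presynaptic cannabinoid receptor of cholecystokinin basket cells, ran from 0 to 20.2 CPM in parvalbumin nuclei (median 3.57), and from 406 to 804 CPM in Vip nuclei. Its log2 fold changes were -3.04, -6.66 and -4.07, with ranges apart in each comparison. Npy, a neuropeptide, was lower than in somatostatin (-4.55 ± 0.30) and Lamp5 nuclei (-3.55 ± 0.32). Chrm3, a muscarinic receptor, was lower than in somatostatin and Vip nuclei (-2.40 ± 0.15 and -2.86 ± 0.14). Ntrk3, the receptor of neurotrophin 3, went the other way. It ran from 1013 to 1659 CPM (median 1213), against medians of 338, 319 and 345, and was higher by 1.87 ± 0.06, 1.92 ± 0.09 and 1.84 ± 0.07 with ranges apart. Oprd1, the delta opioid receptor, ran from 85.7 to 227 CPM and was higher by 5.88 ± 0.30 against Vip and 3.01 ± 0.16 against Lamp5 nuclei. The mu opioid receptor gene Oprm1 was lower than in somatostatin and Lamp5 nuclei (-1.31 ± 0.15 and -2.57 ± 0.16). Of 24 genes listed, 11, 10 and 11 were tested, with 1, 3 and 2 called higher and 4, 5 and 6 lower (medians -0.17, -1.64 and -1.06).

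Adhesion genes split between families. Cntnap5a and Cntnap5b, contactin-associated proteins, were called higher in each comparison, Cntnap5a by 1.14 ± 0.09, 1.22 ± 0.10 and 1.37 ± 0.13. Cntnap4, a relative known from parvalbumin synapses, was called against somatostatin and Vip nuclei (1.76 ± 0.09 and 2.47 ± 0.16). Lgi1, a secreted synapse linker, was called lower in each comparison, with log2 fold changes of -1.36, -1.93 and -2.28. Of 25 genes listed, 23, 20 and 22 were tested, with 4, 7 and 6 called higher and 5, 3 and 5 lower (medians -0.23, 0.23 and 0.20).

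Genes of innate immunity and sterol metabolism were sparsely detected in these nuclei. Of 20 interferon and innate response genes, 1, 0 and 0 passed the filter, and of 20 cholesterol genes 7, 1 and 4. Srebf2, the regulator of sterol synthesis, was called lower against Vip (-1.64 ± 0.21) and Lamp5 nuclei (-1.11 ± 0.16). Neither the 2, 1 and 1 activity genes tested of 11 listed, nor the 12, 9 and 10 tau and tau-kinase genes of 13, held a gene called in any comparison. Mapt, which encodes tau, differed by -0.24 ± 0.07, -0.38 ± 0.09 and -0.15 ± 0.07 on the log2 scale.

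Ranked by fold change, the genes named first against somatostatin nuclei were Pde11a (5.54 ± 0.21), a phosphodiesterase, Syt2, Adamtsl5 (4.52 ± 0.22), a relative of matrix proteases, the noncoding 4930447N08Rik, and Cemip (4.11 ± 0.20), a hyaluronan-degrading protein. They were followed by Zbtb7c, Pde5a, Gm26633, Fras1 and Mypn, with log2 fold changes of 3.64 to 4.08. Cemip ran from 316 to 650 CPM in parvalbumin nuclei and from 7.38 to 61.8 in somatostatin nuclei. Pde11a was not raised against each class. Its median of 151 CPM compared with 2.94 in somatostatin, 19.2 in Vip and 577 in Lamp5 nuclei. The genes lowest against somatostatin nuclei were Rgs6 (-5.14 ± 0.32), a regulator of G protein signalling, Gm10475, Reln (-4.97 ± 0.31), the secreted guidance protein reelin, Gm28175, Npy and Gm49678.

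Against Vip nuclei the leading genes were Nxph1 (7.30 ± 0.29), a secreted neurexin ligand, Oprd1, Syt2, Tmem132c, Gm28501, Sox6, Slit2 (5.21 ± 0.31), an axon guidance cue, Sox5os4, Fras1 and Tll1. Tmem132c had 446 UMIs in parvalbumin and 3 in Vip nuclei, a ratio of 87.7 per UMI sequenced (95% counting interval 29.8 to 426.9). The lowest were Adarb2 (-8.06 ± 0.55), Fxyd6, Cnr1, Fbln2 (-6.34 ± 0.26), a matrix protein, Penk, the enkephalin precursor, and Igf1 (-6.05 ± 0.22), a growth factor. Fxyd6 had 317 UMIs in Vip and 3 in parvalbumin nuclei, a ratio of 179.1 (60.7 to 873.2), and Penk 213 and 2, a ratio of 180.5 (49.4 to 1500.3). Against Lamp5 nuclei Adamtsl5 led with 274 UMIs in parvalbumin and 1 in Lamp5 nuclei, a ratio of 432.1 (76.9 to 17130.5), and Gm26633 followed with 263 and 3, a ratio of 138.3 (46.8 to 674.8). Slit2, Syt2, Mypn, Satb1, Tmem44, Tbc1d4, 6330576A10Rik and 6330411D24Rik completed that list, with log2 fold changes of 4.29 to 5.65. The lowest were Hcrtr2, an orexin receptor, with 1976 UMIs in Lamp5 and 2 in parvalbumin nuclei (ratio 626.4, 173.2 to 5176.3), and Gm3510, with 526 and 2 (166.8, 45.9 to 1380.5). Sema3c, Dchs2, Rgs6 and Cacna2d1 followed at -6.24 to -5.76. None of the 16 genes named in each comparison lost its call or changed sign when any 1 of the 16 libraries was left out (0 of 256 values in each). They were chosen for the largest called differences in these same libraries, so this outcome was close to fixed and is no separate support.

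The parvalbumin nuclei were then grouped by Leiden clustering into 9 clusters, which are described and not tested because the same genes made them. Kcnc1, Erbb4 and Syt2 were detected in each. Cluster 1 (85 nuclei, all 16 libraries) was led by Olfm3 (528 CPM against 117 in the other members). It also held more Eya4, a transcriptional coactivator (205 against 56.7). Cluster 2 (55 nuclei) had the protocadherin gene Pcdh11x at 389.8 CPM against 66.0, with a UMI in 36 nuclei. Mitochondrial genes were also among those leading it, such as mt-Co3 at 1032.5 CPM against 371.9 and mt-Co2 at 709.6 against 248.3. The level of Adarb2 in cluster 2, 646 CPM against 44.1, came from 7 of the 55 nuclei. Adarb2 belongs to Vip and Lamp5 cells, and 5 nuclei of this cluster were called doublets. Cluster 3 (47) was led by Hs3st2 (127 against 5.7), a heparan sulfate enzyme. It also had the transcription factor Foxp2 (111 against 4.9) and Oprm1 at 106 CPM. Cluster 4 (34) had Grik1 at 1030 CPM against 383. Cluster 5 (34) had Kcnip4, a Kv4 channel partner, at 4819 against 514, and Tac1, the substance P precursor, at 46.1. Of its nuclei 9 came from 1 library. Cluster 6 (30) had the adhesion gene Ncam2 at 1850 CPM against 283. Il1rapl2, a synapse organiser, varied from 46.9 CPM in cluster 4 to 3384 in cluster 6.

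Cluster 8 held axo-axonic markers at raised levels. Its 17 nuclei came from 11 libraries. In them 5 of 8 axo-axonic (chandelier) markers stood at least 4-fold above the other members, so the cluster is called axo-axonic-like. Of the 5, Pthlh, Vipr2 and Tacr1 had only 8, 7 and 6 UMIs, and Unc5b and Sntb1 were among the genes leading the cluster. Another marker, Ntng1, was lower, at 9.5 CPM against 61.2, and Cpne5 had 0 UMIs. The share of all genes that stood 4-fold higher in this small cluster was not counted. The summed axo-axonic level was 653.8 CPM against 86.6. That sum was not particular to cluster 8, since cluster 9 reached 662.7 CPM against 79.0 with 1 of the 8 markers, Ntng1, at least 4-fold up. Unc5b, a netrin receptor, stood at 256 CPM against 7.0, and Sntb1, a syntrophin, at 289 against 7.2. The same nuclei held 18.9 CPM of Satb1, 189.5 of Sox6 and 28.4 of Syt2, and 0 UMIs of Nkx2-1 were found in any member. With 0 to 3 such nuclei per library (2, 4, 3 and 8 per group), their number was not compared between groups.

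Clusters 7 and 9 carried genes of other cell types. Cluster 7 (18 nuclei) held the astrocyte glutamate transporter gene Slc1a2 at 367 CPM against 15.1, and Scrublet marked 10 of its nuclei. In it 6 of 6 oligodendrocyte markers (summed 958.2 CPM against 37.4) and 5 of 7 astrocyte markers (958.2 against 291.2) stood at least 4-fold above the other members. Cluster 9 (13 nuclei, median 19513.0 UMIs) held Ntng1 at 617 CPM against 24.0 and Arpp21, a gene of pyramidal neurons, at 420 against 11.1, and 12 of its nuclei were marked. Leaving out these 31 nuclei gave 649, 559 and 667 genes called in the 3 class comparisons. These mixed clusters were picked by markers of cells that are not GABAergic, so cluster 2 was kept in this setting.

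**Figure D3:**
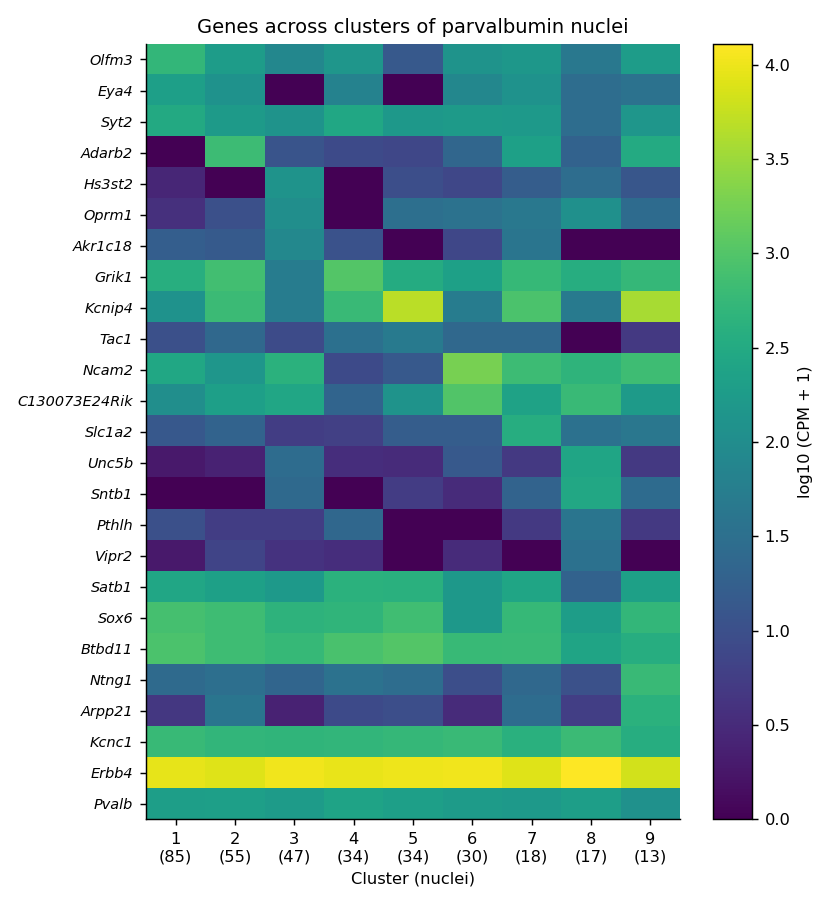
Level (colour, log10 of CPM + 1) of marker and leading genes in the summed nuclei of each cluster of parvalbumin nuclei, with the number of nuclei under each cluster. Unc5b and Sntb1 are bright in cluster 8, Slc1a2 in cluster 7, Ntng1 and Arpp21 in cluster 9, while Kcnc1 and Erbb4 are present in all 9. Pvalb is present in all 9 because the rule asks for it.

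The share of parvalbumin nuclei among inhibitory nuclei (at least 3 Gad UMIs and no more than 1 of Slc17a7) was compared between the groups. In Ch25h+/+ Tau+ libraries it was 2.13, 5.56, 5.15 and 2.29%, and in Ch25h+/+ Tau- libraries 2.33, 2.84, 4.04 and 9.19%. In Ch25h-/- Tau+ libraries it was 4.76, 3.63, 3.45 and 3.18%, and in Ch25h-/- Tau- libraries 4.07, 3.74, 8.12 and 2.80%. The groups overlapped throughout, and 1 library of each Tau- group stood above the rest, with exact 95% binomial intervals of 6.92 to 11.9% and 5.92 to 10.8% that cover counting error only. The group means were 3.78 ± 1.82% (SD, n = 4), 4.60 ± 3.14%, 3.75 ± 0.70% and 4.68 ± 2.35%.

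No difference in share passed a test. Tau+ minus Tau- was -0.82 percentage points in Ch25h+/+ mice (two-sided exact permutation test over libraries, p = 0.743) and -0.93 in Ch25h-/- mice (p = 0.657), and -0.88 averaged over both (p = 0.44). Ch25h-/- minus Ch25h+/+ was -0.025 points with and 0.085 points without the tau allele, and 0.030 on average. All 6 adjusted p-values were 1.0, where the smallest p the design allows was 0.0286 within a genotype and 0.00041 for an average. The averaged tau difference was 0.77 points in library set A and -2.52 in set B, so the sets did not share its sign. Mean depth was higher in the Tau+ groups, though the libraries overlapped. The median UMIs per parvalbumin nucleus averaged 13056 ± 1423 (SD, n = 4) and 13840 ± 1590 in the Tau+ groups. In the Tau- groups it averaged 11473 ± 738 and 12306 ± 847. Single libraries ran from 11148 to 15698.5 with the tau allele and from 10884 to 13481 without it. The part of depth in the share was not tested beyond thinning the inhibitory nuclei with at least 8000 UMIs to that number. Nuclei below it were left out, 41 parvalbumin nuclei among them, so the set differs from the one above. This left 134 parvalbumin nuclei and 3887 inhibitory nuclei in all. The averaged tau difference was then -2.11 points (adjusted p = 0.169, exact permutation test).

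**Figure D4:**
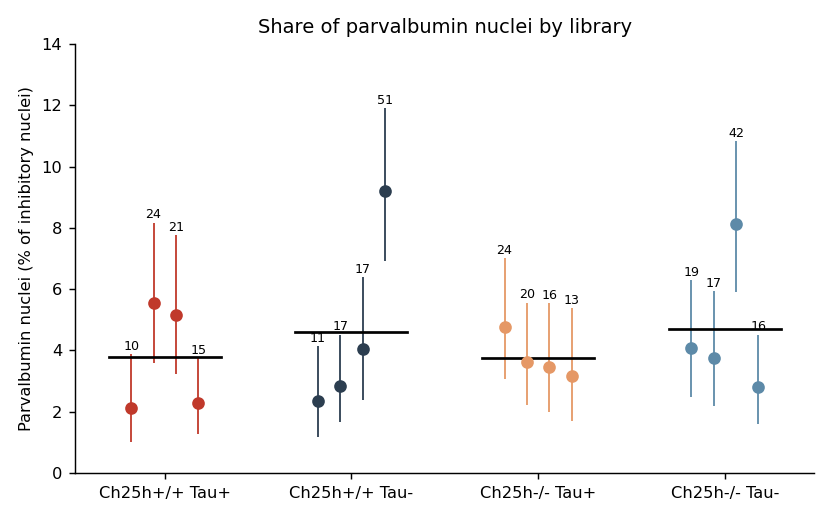
Parvalbumin nuclei as a percentage of inhibitory nuclei in each library (points, with the exact 95% binomial interval and the number of parvalbumin nuclei above), by group, with group means as black lines. The libraries of the 4 groups overlap, and the highest, at 9.19% and 8.12%, are both Tau-.

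Gene expression within parvalbumin nuclei was compared between the groups on counts summed per library, with 7 contrasts over 4801 genes. The sums held 116973 to 606536 UMIs per library, and the median standard error of a log2 fold change was 0.29 and 0.28 for the tau allele within Ch25h+/+ and Ch25h-/- mice. Ch25h itself could not be checked here, with 1, 0, 1 and 0 UMIs in the 4 groups, 1 of them in a Ch25h-/- library. Gm26902, a noncoding gene on the other strand of chromosome 19 whose span (34474808 to 34481546) overlaps that of Ch25h (34473778 to 34475164), had 7 and 6 UMIs in the Ch25h+/+ groups and 0 in both Ch25h-/- groups. Both were too low to test.

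The tau allele went with 1 called gene in each of its contrasts (0.0208% of genes tested), and it was the same gene, Gm43049. At an unadjusted p under 0.05 the tau contrasts counted 5.17% of genes in Ch25h+/+ mice, 4.64% in Ch25h-/- mice and 6.25% averaged over both. This long intergenic noncoding RNA gene lies at chr3:140692038-140760704 on the minus strand (GENCODE M21, GRCm38). It stood at 76.9, 51.3, 57.2 and 67.7 CPM in the Ch25h+/+ Tau+ libraries and at 73.2, 53.4, 48.2 and 39.6 in the Ch25h-/- Tau+ libraries. All 8 Tau- libraries were at 0, so the groups did not overlap. Summed over the groups, 60 UMIs against 0 gave a level at least 22.5-fold higher in Ch25h+/+ mice, and 63 against 0 at least 23.9-fold higher in Ch25h-/- mice (the floor is 3 counts over the group). The adjusted p was 4.79e-05, 3.05e-05 and, averaged over Ch25h genotypes, 2.2e-08 (edgeR quasi-likelihood test). Within Tau+ mice, Ch25h loss changed it by -0.13 ± 0.36 on the log2 scale (adjusted p = 0.998). In Ch25h+/+ mice the adjusted p was 0.0683 in library set A alone and 0.171 in set B, and in Ch25h-/- mice 0.202 in set B, with 2 libraries a group. Of the neighbouring noncoding genes, Gm32754 had 3 and 6 UMIs in the Tau+ groups and 4930590L14Rik 2 and 1, against 0 in the Tau- groups.

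Unc5c, a netrin receptor gene at chr3:141465216-141834924, did not pass the threshold, with lower values in most Tau+ libraries. It stood at 239, 278, 325 and 402 CPM in Ch25h+/+ Tau+ libraries and at 257, 388, 603 and 567 in Ch25h+/+ Tau- libraries, which overlap. In Ch25h-/- Tau+ libraries it stood at 279, 445, 293 and 283 CPM and in Ch25h-/- Tau- libraries at 585, 605, 543 and 556, which do not. The log2 difference was -0.57 ± 0.21 (adjusted p = 0.901) and -0.78 ± 0.20 (0.503), and -0.68 ± 0.15 (0.093) averaged over both. The averaged difference passed with the library set as a term (adjusted p = 0.0431), in set B alone (-0.78, 0.0211) and without the first Ch25h+/+ Tau- library (0.00249). It did not pass in set A alone (-0.54, 0.579), and with 1 library left out its adjusted p reached 0.348.

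Neither Prnp nor Mapt passed the test. Prnp, the prion protein gene, averaged 54.4 ± 12.5 CPM (SD, n = 4), 47.6 ± 18.8, 73.8 ± 42.5 and 35.0 ± 12.2 in the 4 groups. The averaged tau difference was 0.67 ± 0.25 on the log2 scale (adjusted p = 0.603), and 0.44 in library set A and 0.87 in set B. Prnp stood at 400 CPM in barcodes under 100 UMIs against a median of 46.8 in parvalbumin nuclei, and the part of free RNA in this value was not tested. Mapt averaged 315 ± 74.5, 325 ± 40.4, 323 ± 36.5 and 315 ± 96.0 CPM, with an averaged tau difference of 0.01 ± 0.13 (adjusted p = 0.997) that was -0.02 in library set A.

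**Figure D5:**
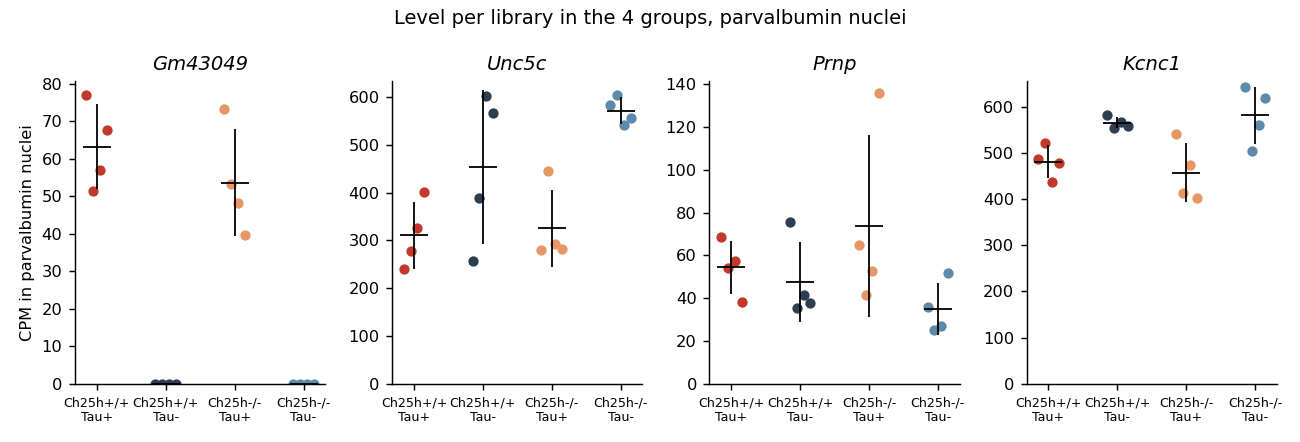
Level of 4 genes in parvalbumin nuclei of each library (points, CPM), with the mean and SD of 4 libraries per group. Gm43049 is at 0 in all 8 Tau- libraries and at 39.6 to 76.9 CPM in the Tau+ libraries, while Unc5c, Prnp and Kcnc1 overlap between Tau+ and Tau- libraries in at least 1 Ch25h genotype.

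Ch25h loss had no called gene (0.0%) in Tau+ or Tau- mice or on average, and neither did the difference between the 2 tau effects. At an unadjusted p under 0.05, edgeR counted 231 (4.81%), 125 (2.6%) and 173 (3.6%) genes for Ch25h loss and 169 (3.52%) for that difference. DESeq2 called 1, 0, 0 and 0, the 1 being Adarb2 in Tau+ mice, which ran from 0 to 1568 CPM over the 16 libraries. The lowest adjusted p was 0.55 in Tau+ mice, for Gabra2, and 0.143 in Tau- mice, for Cntn3, a contactin, both named after their values were seen. Gabra2 averaged 19.97 ± 8.34 CPM in Ch25h+/+ Tau+ and 85.8 ± 54.5 in Ch25h-/- Tau+ libraries (log2 difference 1.89 ± 0.43), against 64.1 ± 12.1 and 65.8 ± 21.3 without the tau allele. Its adjusted p ran from 0.0125, without the first Ch25h-/- Tau+ library, to 0.993 as each library was left out in turn. It was 0.000717 without the count filter, where the averaged effect of Ch25h loss was called too (0.0374). The difference was 1.93 in library set A (adjusted p = 1.0) and 1.95 in set B (0.288). Nuclei of cluster 9, which carried genes of pyramidal neurons, numbered 0 in Ch25h+/+ Tau+ and 5 in Ch25h-/- Tau+ libraries. The cluster 9 genes Pde1a and Cacna2d1 were called in the same contrast without the count filter (4.20 and 2.43, adjusted p = 0.0442 for both). So were Spon1 (adjusted p = 1.24e-05), Fstl4 (0.00247), Stxbp6 (0.00681), Gm28376 (0.0239) and Klhl1 (0.0447), which were not leading genes of cluster 9. Klhl1 was among the leading genes of cluster 2, and so was Adarb2. With the filter Adarb2 differed by 6.17 ± 1.64 (adjusted p = 0.848). The level of Gabra2 in cluster 9 was not read. Without clusters 7 and 9 the Gabra2 difference was 1.38 (adjusted p = 0.998). Cntn3 averaged 123 ± 27.5 CPM in Ch25h+/+ Tau- and 258 ± 61.1 in Ch25h-/- Tau- libraries (1.03 ± 0.21), with an adjusted p of 0.00529 without the count filter and of 0.0897 to 0.88 as each library was left out. The Cntn3 difference was 1.48 in set A (0.0835) and 0.71 in set B (0.999), and 0.76 without clusters 7 and 9 (adjusted p = 1.0).

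The genes named highest in the class comparisons were not called between groups in the edgeR fit of all libraries. In library set A alone Pde11a (averaged tau difference -1.66, adjusted p = 4.99e-05) and Zbtb7c (-1.19, 0.0307) were called. Kcnc1 averaged 481 ± 35.2, 565 ± 11.9, 457 ± 63.5 and 581 ± 61.9 CPM in the 4 groups, and the averaged tau difference was -0.28 ± 0.10 (adjusted p = 0.514). Its Tau+ and Tau- libraries did not overlap in Ch25h+/+ mice and did in Ch25h-/- mice. How many of all genes tested separated in this way was not counted, here or for Unc5c. Syt2 averaged 164 ± 28.1, 217 ± 33.8, 193 ± 66.3 and 186 ± 66.4 CPM (-0.20 ± 0.17, adjusted p = 0.934). Erbb4 differed by -0.14 ± 0.11 and Ppargc1a by -0.11 ± 0.13. Pvalb, Gad1 and Gad2, which the rule used, were kept in the tests between groups. Their averaged tau differences ran from -0.32 to -0.18, with 0 called. Pvalb averaged 178, 227, 169 and 208 CPM. The rule sets a floor of 2 Pvalb UMIs per nucleus, so depth enters this level, and its part was not tested. Of the 18 fast-spiking channel genes 16 were tested, with 0 called and an averaged tau difference of -0.36 to 0.18 (median -0.04).

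The other lists had 0 genes called in all 7 contrasts too. No gene of the 20 in the interferon list passed the filter. Ifit1, Ifit3 and Isg15, genes that interferon induces, had 0 to 3 UMIs in each group. Of the cholesterol genes 1 of 20 was tested, the sterol exporter gene Abcg1, with an averaged tau difference of -0.16 ± 0.26 (adjusted p = 0.99). Changes in these pathways therefore went largely untested here. Of the activity genes 1 of 11 was tested, Homer1, a postsynaptic scaffold (-0.11 ± 0.24). Of the 15 genes of oxidative metabolism 12 were tested, with an averaged tau difference of -0.997 to 0.11 and a median of -0.20, against 0.01 over all genes. The median tau difference was -0.10 in Ch25h+/+ and -0.53 in Ch25h-/- mice, and 0 of the 12 were called for the difference between the 2 tau effects.

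Several genes lay short of the threshold in the averaged tau contrast, at an edgeR adjusted p of 0.053 to 0.10, and are named here after their values were seen. The part of free RNA in their levels was not tested. The noncoding 2900097C17Rik stood at 14.8 to 46.5 CPM in the Tau+ libraries and at 30.2 to 130 in the Tau- libraries (-1.43 ± 0.28, adjusted p = 0.053). Slc25a4, the ADP/ATP carrier of the inner mitochondrial membrane, averaged 55.2 ± 11.9 and 60.3 ± 18.4 CPM against 130 ± 41.4 and 107 ± 59.2 (-0.997 ± 0.22, 0.093). Rab6b, a neuronal Golgi GTPase, differed by -0.70 ± 0.16 (0.093) and Pkm, the glycolytic enzyme pyruvate kinase, by -0.92 ± 0.21 (0.10). Pkm was at 33.8 to 51.5 CPM in all 8 Tau+ libraries and at 35.7 to 156 in the 8 Tau- libraries. None of these 4 genes was called by edgeR as reported or by DESeq2, but the side of the threshold depended on the setting. With the library set as a term 2900097C17Rik, Rab6b and Slc25a4 were called (adjusted p = 0.00135, 0.0411 and 0.0411), as they were without Scrublet doublets (0.0331, 0.0459 and 0.0331), and with no filter on low counts all 4 were (1.8e-05, 0.0061, 0.000689 and, for Pkm, 0.0191). Single libraries also decided it. Without Ch25h-/- Tau- replicate 1 all 4 were called (0.0152 for 2900097C17Rik, Slc25a4 and Pkm and 0.0194 for Rab6b), and without Ch25h-/- Tau- replicate 2 all but Pkm were (0.00531 for 2900097C17Rik, 0.0324 for Rab6b and 0.0219 for Slc25a4). Leaving out Ch25h+/+ Tau- replicate 1 gave 0.0237 for 2900097C17Rik and 0.0145 for Rab6b, and 2900097C17Rik alone was called without Ch25h+/+ Tau- replicate 2 (0.0124) or Ch25h+/+ Tau+ replicate 4 (0.0342). In set A alone the differences were -1.22 for 2900097C17Rik, -0.67 for Slc25a4, -0.48 for Rab6b and -0.39 for Pkm (adjusted p of 0.837 to 0.996), and in set B alone -1.42 (0.0162), -1.16, -0.85 and -1.23 (0.0695 for these 3). The highest adjusted p with 1 library left out was 0.359 for 2900097C17Rik, Rab6b and Slc25a4 and 0.528 for Pkm.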

How the data were processed

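Nuclei of 16 hippocampus libraries were sequenced with the Chromium 3' kit v3.1. The submitters' processing notes name Cell Ranger 3.1.0, Seurat and build mm10, and the file headers name Cell Ranger 4. Whether intronic reads were counted is not given in the sources used here. The deposited values are raw UMI counts per gene and barcode, unfiltered, for 32285 genes (32235 with an identifier in GENCODE M21).

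Barcodes with at least 500 UMIs, at least 300 genes and no more than 5% mitochondrial UMIs were kept. Counts were summed per library and class. The somatostatin rule asks for at least 3 Sst UMIs, the Vip rule for 2 of Vip and the Lamp5 rule for 2 of Lamp5, with no more than 1 of Pvalb. The sums were tested with edgeR 4.0.16 (R 4.3.3: quasi-likelihood fit with robust dispersion, TMM scaling, filterByExpr), with Benjamini-Hochberg adjustment over all genes tested, and called at an adjusted p under 0.05. DESeq2 1.42.0 was the alternative tool. CPM (the UMIs of a gene per 1000000 UMIs of a sum) are not per length and were not tested. Clusters used scanpy 1.11.5 (2000 variable genes, 20 components, 15 neighbours, resolution 0.8). Shares were compared by exact permutation tests over libraries. The edgeR scripts were tested on simulated data.

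Genes were named by size of fold change: in class comparisons the 10 highest and 6 lowest of those called, given 10 UMIs or more per library on average in the higher class, and between groups up to 6 in each direction, given 5 UMIs, and the listed genes are described by count with examples. The members, the lists and this rule were chosen with earlier results of these data known. Replicate numbers follow accession order and pair nothing. No label says that libraries come from separate mice, so p-values measure the spread between these samples. Same-group libraries differed beyond sampling noise in the parvalbumin sums (chi-square per degree of freedom 1.835 to 3.412 over 24 pairs), and none was merged. Doublets were kept, and leaving them out was an alternative. Some genes are not reported here.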

Additional observations from a re-analysis of the deposited data

Results flagged for a closer look

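Among 68 groups of 4 libraries looked at in parvalbumin nuclei, 2 held a library far from the other 3, where chance gives about 1 in 20 groups. Unc5c stood at 445.1 CPM in the second Ch25h-/- Tau+ library, against 279.4 to 293.4 in the others of its group. Prnp stood at 75.52 CPM in the first Ch25h+/+ Tau- library, against 35.28 to 41.57 in the others.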

How the results depend on the processing

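Counts of genes called between groups are given in the order tau in Ch25h+/+, tau in Ch25h-/-, Ch25h loss in Tau+, Ch25h loss in Tau-, difference of the tau effects, tau averaged and Ch25h loss averaged, where the reported counts were 1, 1, 0, 0, 0, 1 and 0. They were 1, 1, 1, 0, 0, 2 and 0 by DESeq2. Without a count filter they were 7, 17, 8, 4, 3, 26 and 6, and with nuclei of 3 or more Pvalb UMIs alone 0 in each, where Gm43049 was not among the 2171 genes tested. Without Scrublet doublets they were 1, 2, 0, 0, 0, 5 and 0, and without the mixed clusters 1, 1, 0, 0, 0, 3 and 0. With the library set as a term they were 2, 1, 0, 0, 0, 7 and 0, in set A 2, 3, 1, 1, 2, 5 and 0, and in set B 2, 2, 1, 0, 0, 9 and 2. Leaving out 1 library gave 1 to 1, 1 to 5, 0 to 1, 0 to 0, 0 to 1, 1 to 12 and 0 to 0, with 12 without the first Ch25h-/- Tau- library. The causes were not tested. Genes called against somatostatin, Vip and Lamp5 nuclei numbered 1448, 1849 and 1826 by DESeq2 (608, 565 and 685 of the reported calls among them), 1701, 2106 and 2089 without a filter, and 236, 153 and 239 at 2000 UMIs per nucleus. Leaving out 1 library gave 600 to 633, 571 to 596 and 651 to 714.

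Share differences (percentage points) changed sign as follows. As a share of all nuclei, Ch25h loss in Tau+ was 0.011. At 8000 UMIs, Ch25h loss was -1.55 in Tau- and -1.02 on average, without Scrublet doublets -0.14 and -0.21, and without mixed clusters -0.15 on average. In set A tau was 1.25 in Ch25h+/+, 0.29 in Ch25h-/- and 0.77 on average, and Ch25h loss in Tau+ 0.35. In set B Ch25h loss was -1.15 in Tau- and -0.78 on average. Leaving out 1 library gave ranges of -1.58 to 0.71, -1.56 to 0.22 and -1.25 to -0.11 for tau (Ch25h+/+, Ch25h-/-, averaged), and -0.58 to 0.57, -1.06 to 1.61 and -0.54 to 0.80 for Ch25h loss (Tau+, Tau-, averaged). Thinning to 2000 UMIs left 6 parvalbumin nuclei and gives no share. The Mapt tau difference was -0.024 in set A and -0.074 to 0.122 without 1 library. Libraries of different groups could not be paired because the labels carry no replicate numbers. Settings added after seeing the data were the library sets, the 8000 UMI thinning and the mixed clusters.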

Other observations

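Some genes were called for the tau allele under other settings than the one reported, and are named here after their values were seen. Dynll2, a dynein light chain, had an averaged tau difference of -1.58 ± 0.37 (adjusted p = 0.10) in the edgeR fit of all libraries and was called without the Scrublet doublets (-1.84, 0.0331) and in set B alone (-3.91, 0.00734). In set A alone the called genes were Gm43049, Cdh4, Cntn5, Pde11a and Zbtb7c, so Gm43049 was the gene called for the averaged tau difference in both sets. Rnf121, a ubiquitin ligase, was called in set B alone (2.40, adjusted p = 5.2e-06), and its difference over all libraries was 1.58 ± 0.55 (0.603).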
